A study of Mus musculus with 8 samples.

Results

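The genes described here are 10 genes of ubiquitin-dependent protein breakdown in wasting muscle: Fbxo32, Trim63, Fbxo30, Fbxo31, Mul1, Traf6, Cblb, Nedd4, Trim32 and Zfand5. They were taken by name, and every array probe set annotated to 1 of these genes alone was included, which gave 31 of the 45037 probe sets that are not controls. All 10 genes were among the 18193 genes named in the table. Of the 31 probe sets, 25 lay above the signal filter of 19.4 used for testing, and each gene had at least 1 of them. Of the 10 genes, 9 encode ubiquitin ligases, while Zfand5 encodes a ubiquitin-binding zinc finger protein that stimulates the proteasome.

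RNA came from mouse gastrocnemius, the large calf muscle, and each sample was hybridised to 1 Affymetrix array. There were 4 control samples, labelled wild type, and 4 knockout samples, labelled GR KO, all on the C57/Bl6J strain background. GR is the glucocorticoid receptor, the product of Nr3c1 and a transcription factor switched on by hormone, and the design text writes the mutants as GR(i)skm-/-, a name used for inducible disruption of the gene in skeletal muscle fibres. The labels used here give no age, sex, inducing agent, recombinase promoter or hormone treatment. Whether each sample came from its own animal is not stated either. The p-values therefore reflect how these 8 arrays scatter, and that scatter may be partly technical. The comparison asks whether transcripts of this breakdown pathway differ when the receptor is disrupted. In such bulk samples, fewer cells of a type and less RNA per cell cannot be told apart.

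Ubiquitin ligases choose which proteins are tagged with ubiquitin, and the proteasome then degrades the tagged proteins. In skeletal muscle Fbxo32 (atrogin-1) and Trim63 (MuRF1) are the best known ligases of wasting. Their transcripts rise with fasting, denervation and glucocorticoid excess, and FoxO transcription factors and the glucocorticoid receptor are known activators of them.

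Promoter sequence of Trim63 is shown because its window alone among those of the members held a nearly complete receptor element, and that of Nedd4 because it was the other member window with the shorter receptor motif. RefSeq windows of the GRCm38.p6 build, from 250 bases before to 50 bases after each gene start, were found for 9 of the 10 genes, with 10 windows in all since Nedd4 had 2. No window of Fbxo32 was in the table. The windows were searched on both strands for the short receptor motif AGAACA, which is one arm of the full element, for the FoxO motif GTAAACA and for the full receptor element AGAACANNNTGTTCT. In the sequences below, capitals mark the matches, and both windows are printed on the plus strand. The capitals TGTTCT of Nedd4 are AGAACA read on the opposite strand. The Trim63 window is chr4:134314870-134315169. The Nedd4 window, at a later start of that gene, is chr9:72693048-72693347.

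Trim63: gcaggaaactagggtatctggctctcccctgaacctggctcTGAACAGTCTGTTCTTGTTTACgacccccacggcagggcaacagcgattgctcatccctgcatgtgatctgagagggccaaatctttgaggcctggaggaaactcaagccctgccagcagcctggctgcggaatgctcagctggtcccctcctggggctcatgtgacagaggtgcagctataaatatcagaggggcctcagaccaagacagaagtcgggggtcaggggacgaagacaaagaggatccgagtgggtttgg
Nedd4: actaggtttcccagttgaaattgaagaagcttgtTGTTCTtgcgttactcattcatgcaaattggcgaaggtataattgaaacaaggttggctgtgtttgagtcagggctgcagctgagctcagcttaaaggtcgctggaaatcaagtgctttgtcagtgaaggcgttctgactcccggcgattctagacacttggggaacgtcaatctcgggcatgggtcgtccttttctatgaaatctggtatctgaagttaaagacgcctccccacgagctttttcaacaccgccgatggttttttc

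The Trim63 window held the full receptor element with 1 of its 12 fixed letters changed, 209 to 195 bases before the start. The change was A1T, counted from the first base of the element. The 3′ end of that stretch is AGAACA on the opposite strand, and the FoxO motif, also read on the opposite strand, followed directly from 194 to 188 bases before the start, with no overlap. Of all 32851 windows, 0.164% held the element with at most 1 change, 0.00913% held it unchanged, and 3.65% held the FoxO motif. AGAACA was found in 2 of the 10 member windows, those of Trim63 and Nedd4, and in 19.0% of all windows. These matches describe letters of the reference and say nothing about binding in this muscle.

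None of the 10 genes differed between the groups past the threshold, an adjusted p of 0.05 in limma over the 11062 genes tested. The background in this comparison was low too: 0.0542% of all genes passed, 6 in number and all lower in GR KO muscle, and none was a member. At an unadjusted p under 0.05 there were 0 of the 10 members, against 4.63% of all genes. No member had groups that did not overlap, against 2.58% of all genes. Fold changes below are GR KO against control, on the log2 scale of the deposited signals, and a gene is represented by its brightest probe set.

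Probe sets of the targeted gene differed in how far they fell on the knockout arrays, and the labels do not say which lie in the deleted part. For Nr3c1 the probe set 1460303_at had a mean signal of 336 ± 34.7 in control and 95.8 ± 26.7 in GR KO muscle (SD, n = 4). The brightest Nr3c1 probe set, 1421867_at, had a log2 fold change of -1.07 ± 0.29 (SE) and did not pass in limma (adjusted p = 0.777). Fkbp5, a receptor target that encodes a co-chaperone of the receptor, was lower on all 4 GR KO arrays, with signals of 84, 76, 57 and 88 against 345, 225, 375 and 242 in controls, and was 1 of the 6 genes past the threshold.

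The arrays themselves were alike in scale, with median signals between 18 and 26, but control replicate 4 stood apart. Its spike-in signals were 3.24-fold those of the other controls, and its Gapdh 3′ to 5′ signal ratio was 1.20, against 0.797 to 0.915 on the other 7 arrays. Its actin 3′ to 5′ ratio, 1.73, lay within the 0.991 to 1.84 of the other arrays. The 6 skeletal muscle markers, such as the fast myosin Myh4 and the creatine kinase Ckm, were above the filter and had fold changes below 0, with a summed signal of 66989 to 160299 in controls, the highest on control replicate 4, and 63625 to 100463 in GR KO muscle. Sums for 5 endothelial markers were 1762 to 2212 in controls and 2204 to 3264 in GR KO muscle, and for 5 fibroblast and matrix markers 6084 to 11587 and 10251 to 14849. Control replicate 4 had the lowest sum of both, and the groups overlapped in both. Of each of these 2 sets, 1 marker was below 0 and 4 were above, and 47.8% of all genes tested were below 0. Markers found for macrophages (4, sums of 455 to 660 and 410 to 631), adipocytes (2, 2198 to 5524 and 2082 to 3641), Schwann cells (2, 400 to 1852 and 552 to 2024) and erythrocytes (2, 94 to 217 and 100 to 200) also overlapped between the groups. Of those tested, 2 macrophage markers were below 0 and 1 above, and both adipocyte markers were below. Both Schwann cell markers and the 1 erythrocyte marker tested were above 0. No marker was listed at 0 on any array and none passed in limma, and the part of other cells in the values below was not tested.

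**Figure D1:**
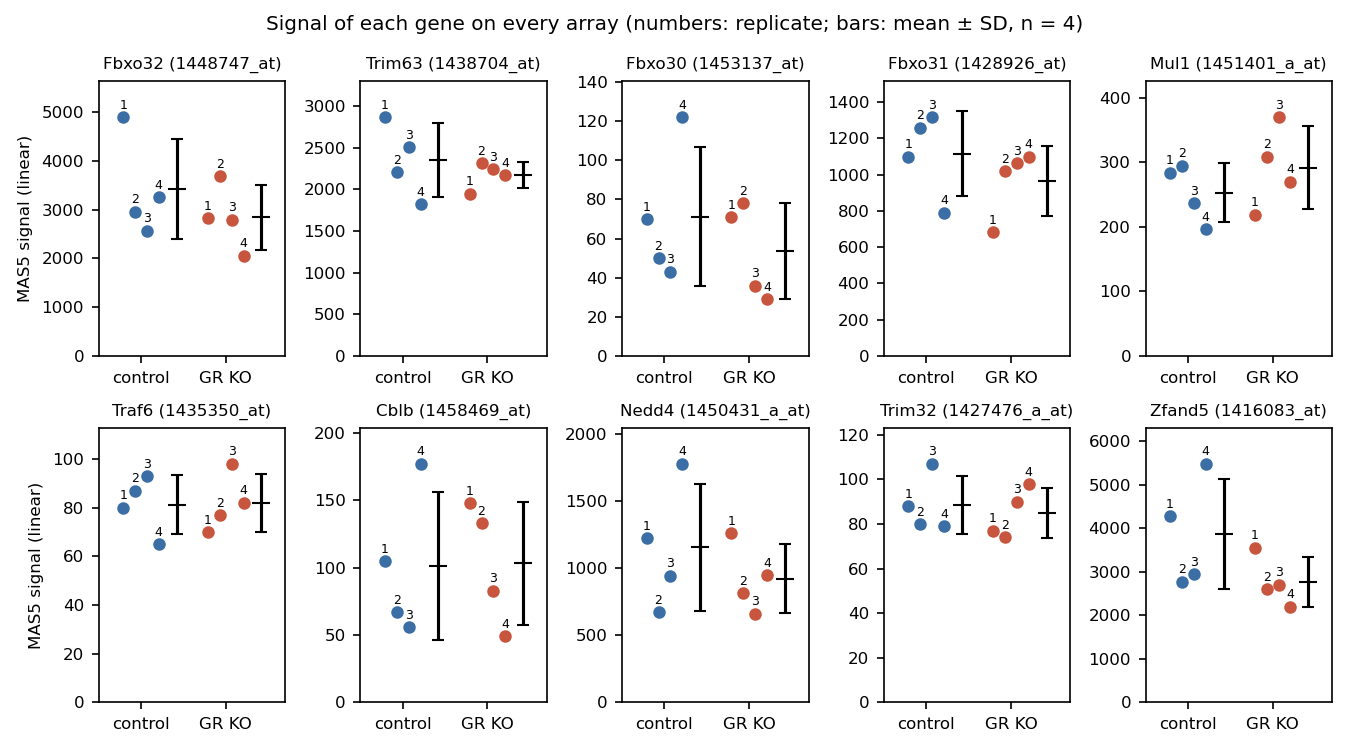
MAS5 signal on a linear scale of the brightest probe set of each of the 10 genes, with 1 point per array, the replicate number above it, and the mean ± SD of 4 arrays beside each group (control in blue, GR KO in red). The groups overlap for every gene, and control replicate 4 is the highest array for Fbxo30, Cblb, Nedd4 and Zfand5 and the lowest for Trim63, Mul1 and Traf6.

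The F-box ligase Fbxo32 is the substrate-binding part of a cullin ligase, and MyoD and the translation factor eIF3f are among its known substrates. Its brightest probe set, 1448747_at, had signals of 4897, 2958, 2571 and 3252 on the 4 control arrays and 2828, 3682, 2798 and 2055 on the 4 GR KO arrays. Control replicate 1 was the highest array and GR KO replicate 4 the lowest, and the other 6 arrays were interleaved. The level in GR KO muscle was 83.9% of control (log2 fold change -0.25 ± 0.22 SE, limma adjusted p = 0.881), and the 95% interval ran from 59.7% to 118% of control. Without control replicate 1 the log2 fold change was -0.07.

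The other Fbxo32 probe sets had the same sign. Probe set 1417522_at read 2811, 1349, 1709 and 3246 in controls and 1628, 1743, 1509 and 1283 in GR KO muscle, with control replicates 1 and 4 well above the other 6 arrays. Its log2 fold change was -0.48 ± 0.26 (SE), and -0.28 without control replicate 4. Probe set 1435265_at read 777, 463, 572 and 494 against 526, 466, 446 and 574, with a log2 fold change of -0.17 ± 0.18, and -0.02 without control replicate 1. The spread among controls was larger than among GR KO arrays at all 3 probe sets, with SDs of 1024, 896 and 141 against 665, 197 and 58.3.

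Trim63, the RING-type ligase that acts on myosin and other proteins of the thick filament, had 1 probe set. Signals were 2863, 2204, 2508 and 1819 in controls and 1948, 2315, 2242 and 2172 in GR KO muscle. All 4 GR KO arrays lay within the range of the controls. The mean was 2349 ± 444 in control and 2169 ± 159 in GR KO muscle (SD, n = 4), or 93.5% of control from log2 means. The 95% interval ran from 73.8% to 118% (limma adjusted p = 0.914). Without control replicate 1 the log2 fold change was 0.00427, and without control replicate 4 it was -0.21.

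Fbxo32 and Trim63 were compared over the 8 arrays, since they are the pair most often measured together. Pearson's r of their log2 signals was 0.45 (exact permutation p = 0.257) and Spearman's rho 0.24 (exact permutation p = 0.582). After adjustment over the 45 pairs of members the p-values were 0.364 and 0.655. Control replicate 1 was the highest array for both genes, and without it r was -0.18. Leaving out the 2 arrays farthest from the Fbxo32 median, control replicate 1 and GR KO replicate 4, gave an r of -0.26. Within a group there were 4 arrays, too few for a correlation.

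The genes whose signals ran most closely with each of the pair were found over the 8 arrays after group means were subtracted, among 11062 genes. For Fbxo32 they were Cask (r = 0.97), Samd5 (0.96), Bnc2 (0.96), Mospd1 (0.94) and Rph3al (0.92). For Trim63 they were Gng7 (r = 0.97), Pkd1 (0.96), Myl3 (0.95), Asb11 (0.95) and Lmo1 (0.94). Myl3 encodes a myosin light chain of slow fibres, and Asb11 a substrate-binding part of a cullin ligase. These values rank likeness among very many genes on few arrays, and no p belongs to them.

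Fbxo30, also called MUSA1, is an F-box ligase of wasting muscle that BMP signalling keeps low. The brightest of its 4 probe sets, 1453137_at, read 70, 50, 43 and 122 in controls and 71, 78, 36 and 29 in GR KO muscle. Control replicate 4 was the highest array and GR KO replicates 3 and 4 the lowest. The level was 74.9% of control with a wide interval, 41.3% to 136% (log2 fold change -0.42 ± 0.39 SE, limma adjusted p = 0.881). Single arrays of either group carried much of this difference. The log2 fold change was -0.12 without control replicate 4 and -0.16 without GR KO replicate 4. That of 1436550_at went from -0.24 to 0.15 without control replicate 4. Probe set 1429441_at had -0.11, and 1453136_at was below the filter, with signals of 2 to 16.

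Fbxo31, an F-box ligase known for degrading cyclin D1, was represented by 2 probe sets of the same sign. At 1428926_at the controls read 1099, 1259, 1317 and 790 and the GR KO arrays 682, 1021, 1062 and 1099. Control replicate 4 and GR KO replicate 1 were the 2 lowest arrays, each well below the rest of its group. The level was 86.7% of control (log2 fold change -0.21 ± 0.20 SE), and without control replicate 4 the log2 fold change was -0.36, against -0.05 without GR KO replicate 1. Probe set 1417969_at read 254, 245, 272 and 181 against 156, 214, 186 and 196, so that 3 of 4 control arrays lay above all 4 GR KO arrays. Its log2 fold change was -0.33 ± 0.17 (unadjusted p = 0.0801, limma adjusted p over probe sets 0.963).

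Mul1, the ligase of the outer mitochondrial membrane that marks mitofusins, was the member with the highest fold change. Signals at 1451401_a_at were 284, 295, 237 and 197 in controls and 219, 309, 370 and 270 in GR KO muscle, 115% of control (95% interval 85.7% to 153%, limma adjusted p = 0.881). GR KO replicate 3 was the highest array and control replicate 4 the lowest. The log2 fold change went from 0.20 to 0.08 without control replicate 4 and to 0.07 without GR KO replicate 3. At 1434118_at it was 0.04 with all arrays and -0.09 without control replicate 4.

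Traf6 is a RING-type ligase and adaptor of signalling to NF-kB. Its brightest probe set, 1435350_at, had nearly equal means, 81.2 ± 12.1 in control and 81.8 ± 11.9 in GR KO muscle (SD, n = 4). The level was 101% of control with a 95% interval of 76.7% to 132% (limma adjusted p = 0.992). Its log2 fold change of 0.01 turned to -0.09 without control replicate 4 and to -0.08 without GR KO replicate 3. Another probe set, 1421376_at, had a log2 fold change of 0.02. The other 3 Traf6 probe sets, with signals of 2 to 14, were below the filter. Among them 1446940_at read 4, 3, 2 and 3 in controls and 3, 6, 8 and 9 in GR KO muscle.

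Cblb, a RING-type ligase that targets the insulin receptor substrate Irs1 in unloaded muscle, showed the widest interval. Probe set 1458469_at read 105, 67, 56 and 177 in controls and 148, 133, 83 and 49 in GR KO muscle. Both groups spread over about a 3-fold range and covered each other. The level was 104% of control with a 95% interval of 55.8% to 192% (limma adjusted p = 0.986). Its log2 fold change of 0.05 ran from -0.19 without control replicate 3 to 0.37 without control replicate 4. The other probe sets were tighter, 1437304_at with a log2 fold change of 0.03 ± 0.18 and 1455082_at with -0.15 ± 0.23 (SE). Irs1 itself read 2001, 2252, 2740 and 871 in controls and 2551, 2170, 2401 and 2162 in GR KO muscle. Its log2 fold change of 0.35 ± 0.29 (SE) was carried by control replicate 4, the lowest array, and was 0.00249 without it.

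Nedd4 is a HECT-type ligase of membrane proteins, and its 3 probe sets disagreed in sign. At 1450431_a_at the controls read 1226, 674, 945 and 1781 and the GR KO arrays 1263, 816, 663 and 952, for a log2 fold change of -0.27 ± 0.28 (SE). At 1451109_a_at they read 314, 205, 352 and 696 against 372, 169, 183 and 313, for -0.53 ± 0.36. Both were highest on control replicate 4, and without that array the values were -0.04 and -0.21.

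The remaining Nedd4 probe set, 1421955_a_at, ran the other way across arrays. It read 1027, 1216, 810 and 537 in controls and 714, 1273, 1090 and 898 in GR KO muscle, with control replicate 4 the lowest array. The log2 fold change was 0.18 ± 0.26 (SE), or -0.05 without that array. The ending _a_at marks probe sets that match several transcripts of 1 gene. Which Nedd4 transcripts each of them matches was not analysed here.

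Trim32, the ligase of desmin and thin-filament proteins whose mutations cause a limb-girdle dystrophy, had 1 probe set. Its signals were 88, 80, 107 and 79 in controls and 77, 74, 90 and 98 in GR KO muscle. The groups covered nearly the same range, and the level was 95.9% of control (95% interval 73.9% to 124%, limma adjusted p = 0.949). The sign turned to 0.03 without control replicate 3 and to 0.00113 without GR KO replicate 2.

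Zfand5 had the lowest fold change of the 10 genes and the most probe sets, 7. At the brightest, 1416083_at, the controls read 4276, 2774, 2951 and 5487 and the GR KO arrays 3562, 2609, 2706 and 2199. Control replicates 4 and 1 were the highest, while control replicates 2 and 3 lay among the GR KO arrays. The level was 73.3% of control (log2 fold change -0.45 ± 0.23 SE, unadjusted p = 0.0756, limma adjusted p = 0.880), and the 95% interval ran from 51.7% to 104%. Without control replicate 4 the log2 fold change was -0.26.

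A dimmer Zfand5 probe set, 1416084_at, showed the largest difference of the 25 probe sets tested. It read 252, 212, 289 and 154 in controls and 105, 91, 112 and 170 in GR KO muscle. The groups overlapped only through control replicate 4 and GR KO replicate 4. The log2 fold change was -0.93 ± 0.24 (SE), 52.6% of control, with an unadjusted p of 0.00280 in limma. Over the 22518 probe sets tested the limma adjusted p was 0.963, and it lay between 0.401 and 0.9999 over the alternatives. Leaving out either of these arrays had to remove the overlap and enlarge the difference, so it adds no support. The log2 fold change was -1.10 without control replicate 4 and -1.11 without GR KO replicate 4. Of the 22518 probe sets, 532 lower and 455 higher had no overlap without control replicate 4. Without GR KO replicate 4 these were 480 and 458.

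Other Zfand5 probe sets gave smaller values of the same sign where they were bright enough to test. Probe set 1416085_s_at, whose ending marks probes shared by several transcripts, possibly of other genes, read 3147, 2717, 2610 and 2630 against 2356, 2776, 2013 and 2110, for a log2 fold change of -0.27 ± 0.14 (SE). At 1453224_at and 1453374_at the log2 fold changes were -0.39 ± 0.28 and -0.10 ± 0.21. Below the filter, 1429657_at and 1441106_at had -0.19 and 0.19, at signals of 14 to 27.

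**Figure D2:**
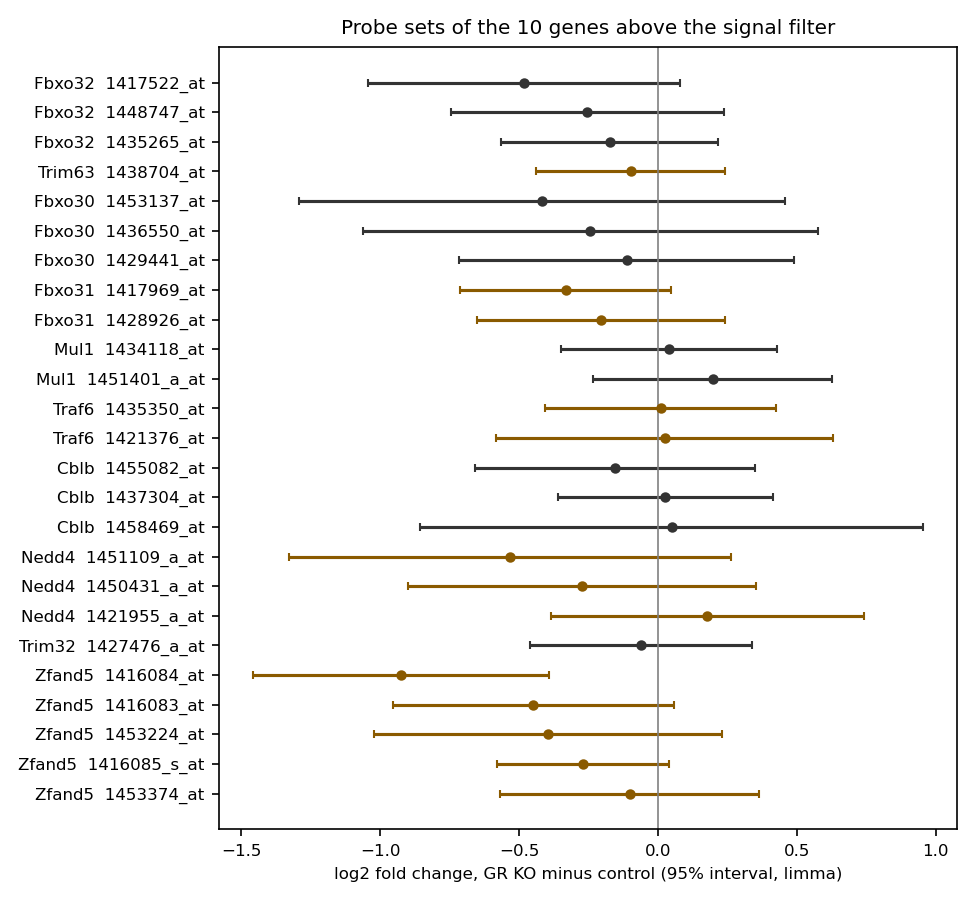
Log2 fold change of GR KO against control (horizontal axis) with its 95% interval from limma for the 25 probe sets of the 10 genes above the signal filter, grouped by gene with alternating colours. Intervals cover 0 for all probe sets but 1416084_at of Zfand5, which did not pass after adjustment over all probe sets.

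Across all member probe sets above the filter, 18 of 25 had a log2 fold change below 0, with a median of -0.17. Over all 22518 probe sets tested, 11761 were below 0, with a median of -0.01. In limma over 22518 probe sets 0 of the 25 passed, against a background of 0.0222%. One, 1416084_at, was at an unadjusted p under 0.05, against 3.75% of all probe sets, and 0 had groups that did not overlap, against 2.19%. Probe sets of a gene share their RNA and are not independent counts. With the 6 dim ones included, 22 of 31 were below 0, against 23131 of all 45037 probe sets.

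At the level of genes, 7 of 10 members had a fold change below 0, against 47.8% of all 11062 genes. The median was -0.15 for the members and 0.01 for all genes tested. Among all genes ranked by fold change, 5.04% lay at or below Zfand5 and 78.3% at or below Mul1. The median was nearest 0 without control replicate 1, at -0.06. That array had a member score, the median of the 10 deviations from each gene's mean, of 0.24, while the other 7 arrays lay between -0.13 and 0.02. The counts describe the members only and carry no test.

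**Figure D3:**
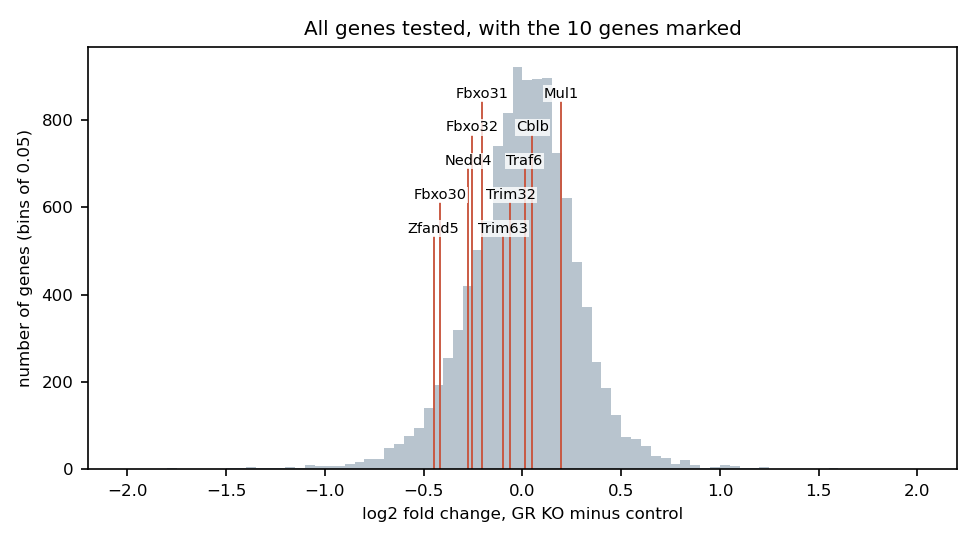
Number of genes per bin of log2 fold change, GR KO against control, for the 11062 genes tested (grey), with the 10 genes marked by red lines whose heights only separate the labels. The 10 genes lie between -0.45 and 0.20, and 5.04% of all genes lie at or below Zfand5, the lowest of the 10.

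At the brightest probe set of each member, most of the variance over the 8 arrays lay within the groups. With 4 arrays per group that is usual also where groups do not differ, so these shares carry no test. The share of variance over the 8 arrays that lay between the groups had a median of 9.96%, from 0.0794% for Traf6 to 31.1% for Zfand5. Among the other probe sets tested, 1416084_at of Zfand5 had the highest share, 65.4%. Control replicate 4 was the highest array for 4 genes and the lowest for 3, and GR KO replicate 4 was the lowest for 4. The highest array exceeded the lowest by 4.21-fold for Fbxo30 and by 1.45-fold for Trim32.

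Members also differed in which arrays they were high on. The brightest probe sets of Fbxo30 and Cblb had a Pearson's r of 0.91 over the 8 arrays (exact permutation p = 0.00278; Spearman's rho 0.90, exact permutation p = 0.00456). After adjustment over the 45 pairs these became 0.0990 and 0.138. Without the 2 arrays farthest from the Fbxo30 median, control replicate 4 and GR KO replicate 4, r was 0.79. The brightest probe sets of Mul1 and Nedd4, 1451401_a_at and 1450431_a_at, ran in opposite directions, with r = -0.85 (exact permutation p = 0.00873, adjusted p = 0.0990) and rho = -0.88 (exact permutation p = 0.00724, adjusted p = 0.138), and r = -0.60 without control replicate 4 and GR KO replicate 3. That relation depended on the Nedd4 probe set: with the same Mul1 probe set r was -0.91 for 1451109_a_at and 0.89 for 1421955_a_at. For Fbxo30 it likewise varied with the Cblb probe set, from 0.85 for 1455082_at to 0.06 for 1437304_at. Among the 45 pairs, Fbxo30 with Cblb had the highest r and Mul1 with Nedd4 the lowest. No pair passed after adjustment, and 12 of 45 had an unadjusted p under 0.05. The share among pairs of all genes was not computed, and each gene enters several pairs over the same arrays. That count therefore says nothing particular about the members. Of the 45 r values, 22 were above 0 and the median was -0.08.

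**Figure D4:**
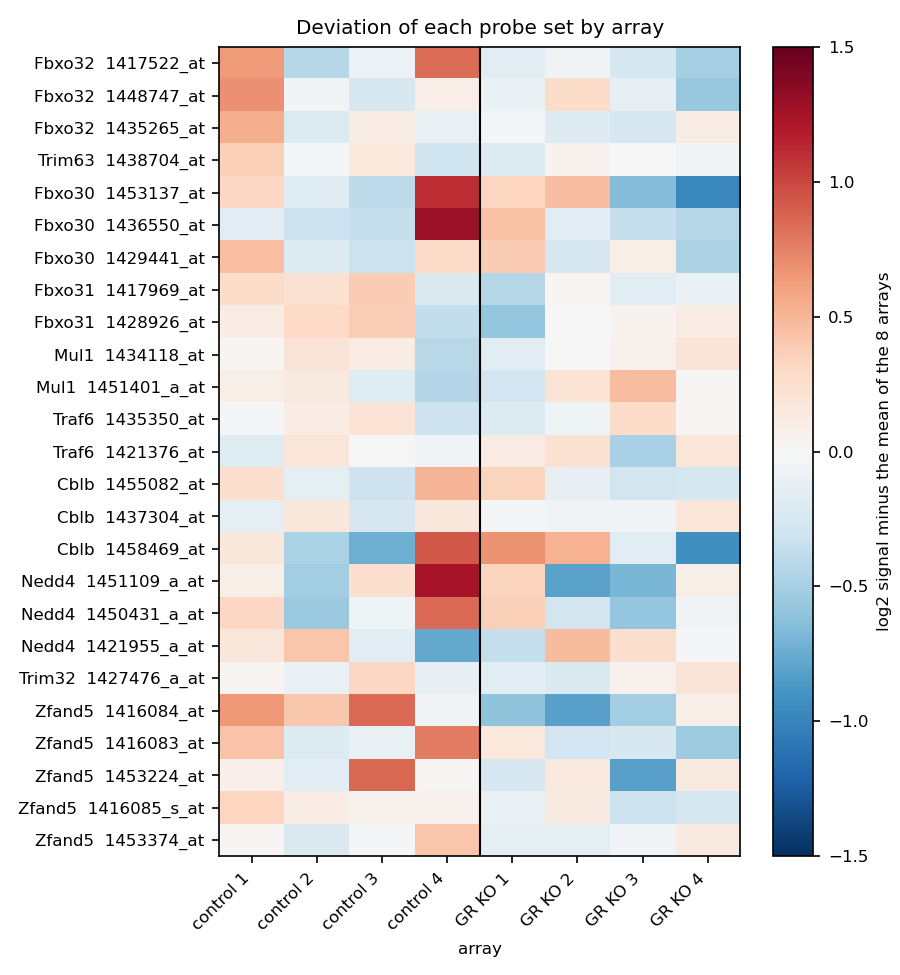
Log2 signal of each of the 25 probe sets (rows, grouped by gene) on each array (columns, controls left of the line) minus its mean over the 8 arrays, red for above and blue for below. Control replicate 4 is high for Fbxo30, 2 Nedd4 probe sets and 1458469_at of Cblb and low for 1421955_a_at of Nedd4, and 1416084_at of Zfand5 is lower on GR KO replicates 1 to 3 than on control replicates 1 to 3.

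Other genes of the pathway were taken from 5 lists, 91 genes in all, of which 76 were tested. The upstream list holds Nr3c1 itself, the disrupted gene. None passed in limma over all genes tested, and 5 of the 76 (6.58%), Nr3c1 among them, had an unadjusted p under 0.05, against 4.63% of all genes. Of the 76, 41 were below 0 against 35 above, with a median of -0.01. Among 14 further muscle ubiquitin ligases, 6 were below 0 and 8 above, with a median of 0.02. The smallest p-values there were those of Fbxo9, an F-box protein (626, 525, 642 and 674 in controls, 550, 364, 471 and 460 in GR KO muscle; log2 fold change -0.43 ± 0.15 SE, limma adjusted p = 0.880), of Siah1a (0.38 ± 0.21) and of the HECT-type ligase Wwp1 (-0.33 ± 0.20). Without control replicate 4 the Wwp1 value was -0.20, and without control replicate 3 that of Siah1a was 0.24. All 3 Wwp1 probe sets were below 0, while the other Siah1a probe sets, at -0.22 and -0.14, went against the brightest. The other Fbxo9 probe set had -0.11.

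Another list held the scaffold that F-box ligases plug into, together with other cullins and neddylation genes. Of 14 cullin and neddylation genes, 10 were below 0 and 4 above, with a median of -0.02. Cops5, a subunit of the complex that removes Nedd8 from cullins, had -0.17 ± 0.13 (SE), the RING subunit Rbx1 -0.32 ± 0.30 and the adaptor Skp1 -0.13 ± 0.14. Single arrays moved these: Cops5 was -0.08 without GR KO replicate 2, Rbx1 -0.14 without GR KO replicate 4 and -0.16 without GR KO replicate 3, and Skp1 -0.07 without control replicate 3 and -0.23 without control replicate 4. Of 10 ubiquitin-conjugating enzymes, 6 were below 0 and 4 above, with a median of -0.06. Among them Ube2d3, an enzyme that works with many RING-type ligases, had -0.36 ± 0.15 (unadjusted p = 0.0398, limma adjusted p = 0.880), and its other probe sets above the filter ran from -0.50 to 0.000225. Ube2g1 had -0.44 ± 0.23 and Ube2v1 0.30 ± 0.17, and without control replicate 4 these were -0.25 and 0.19.

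Factors that act on these ligases were tested for 16 genes, 8 below and 8 above 0. Klf15, a receptor target that activates muscle catabolism, read 294, 204, 222 and 267 in controls and 199, 203, 154 and 160 in GR KO muscle. Its groups touched without overlapping, by 1 unit of signal, and the log2 fold change was -0.46 ± 0.17 (SE, unadjusted p = 0.0180, limma adjusted p = 0.880). Of the 76 pathway genes tested, 2 had groups that did not overlap, Klf15 and Ccnd1, against 2.58% of all genes. Cebpd, a glucocorticoid-responsive transcription factor, had -0.40 ± 0.15 at its brightest probe set and 0.06 at the other. The FoxO genes, known activators named outside the rule and after their values were seen, had log2 fold changes of 0.13 (Foxo1), -0.06 (Foxo3) and -0.32 (Foxo4).

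Substrates and partners of the 10 gene products gave 11 values below 0 and 11 above over 22 genes, with a median of -0.00897. Ccnd1, the cyclin that Fbxo31 targets, read 159, 161, 164 and 152 in controls and 220, 168, 183 and 182 in GR KO muscle, so all 4 GR KO arrays were above all 4 controls (log2 fold change 0.24 ± 0.14 SE, limma adjusted p = 0.880). Groups without overlap, in either direction, were seen for 2 of the 76 pathway genes and 2.58% of all genes. The other Ccnd1 probe sets, with log2 fold changes of 0.66 and 1.56, had the same sign. At the probe set with 1.56 the mean log2 signal was 3.96 in controls and 5.52 in GR KO muscle. The control mean lay below the signal filter of 19.4, so the size of that value is uncertain. Ndfip1, an adaptor of Nedd4, had -0.21 ± 0.17 at its brightest probe set. Its other probe sets above the filter differed in sign, at 0.08 and -0.26.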

How the data were processed

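Total RNA of 8 gastrocnemius samples was measured on 1-colour Affymetrix arrays. The authors deposited linear signal intensities, and the submitters' processing notes name MAS5 as the tool. Judged by the values, arrays share a trimmed mean near 100.0, 99.960 to 99.964 with 2% trimmed at each end. The files used here hold no scanner images or probe-level data. Signals were taken to log2 with no pseudocount, and a 0 was set to the array's lowest positive signal. Of 45037 probe sets that are not controls, 34945 had 1 gene symbol, 932 several and 9160 none. A gene was represented by its brightest probe set by mean log2, and tested if that exceeded the median over probe sets (signal 19.4). Groups were compared two-sided with limma 3.58.1 in R 4.3.3 (trended eBayes, Benjamini-Hochberg over all 11062 genes, or over all 22518 probe sets in a separate fit). In data simulated with known changes, the gene test recovered 6.4% of log2 changes of 0.5, 53% of changes of 1 and 90.4% of changes of 2. Each simulated set held 200 changed genes and independent normal noise, while the deposited data gave 6 calls. With fewer changed genes the adjustment is stricter, so these shares may be too high for the deposited data. Changes as small as those of the members would therefore mostly be missed. The number of arrays, 4 per group, limits the precision. No pair of arrays was identical. The members, lists and tests were chosen with earlier results of these data known. Named were all members, Nr3c1, Fkbp5, up to 3 genes of each list by smallest p, and the 5 genes most like Fbxo32 and Trim63, predicted transcripts passed over; Foxo1, Foxo3 and Foxo4 were named outside this rule, after their values were seen. Alternatives were quantile normalization, median centring, a pseudocount of 10, no filter, a filter at the 70th percentile, averaged probe sets, eBayes without trend, a replicate block and leaving out each array.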

Additional observations from a re-analysis of the deposited data

Results flagged for a closer look

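Single arrays stood apart from their group, by Dixon's 95% critical value for 4 values, in 4 of the 62 groups of 4 signals (31 probe sets in each genotype), where chance gives about 1 in 20. At 1436550_at of Fbxo30, control replicate 4 read 112 against 36, 37 and 41 on the other controls. At 1428926_at of Fbxo31, GR KO replicate 1 read 682 against 1021, 1062 and 1099. At 1421376_at of Traf6, GR KO replicate 3 read 17 against 26, 27 and 28. At 1437304_at of Cblb, GR KO replicate 4 read 92 against 78, 78 and 80.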

How the results depend on the processing

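No member passed the adjusted threshold under any alternative run, and the members' median log2 fold change lay between -0.21 with quantile normalization and -0.06 without control replicate 1. Fbxo32, Fbxo30, Fbxo31, Mul1, Nedd4 and Zfand5 kept their sign in each alternative that tested them; Fbxo30 was not tested with the filter at the 70th percentile, nor Traf6 with averaged probe sets. Leaving out arrays for the named pathway genes was chosen after seeing the data. The sign turned for Cblb when probe sets were averaged (-0.026), and on leaving out single arrays for Cblb (-0.19 to 0.37), Trim63 (-0.21 to 0.00427), Trim32 (-0.134 to 0.034) and Traf6 (-0.0926 to 0.0814); the cause was not tested. The correlation of Fbxo32 and Trim63, with single arrays left out as an alternative chosen after seeing the data, ran from -0.18 to 0.64. Over all genes the 6 calls became 9 with quantile normalization, 4 with median centring, 2 without trend, 1 with averaged probe sets and 0 with no filter (857 at an unadjusted p under 0.05 in limma), and 0 to 5 with single arrays left out. Same-numbered arrays had correlations of their deviations of -0.19, 0.18, 0.11 and -0.39. These values show no pairing by number, but with 4 arrays per group they cannot exclude one. The labels only number the samples. With the replicate block 1 gene and 0 probe sets were called, against 6 and 5 in the main fit. Of the members 0 were called, with a median log2 fold change of -0.15.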
